A study of Mus musculus with 6 samples.

Results

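Genes of the lysosome and of the vacuolar ATPase (V-ATPase) were followed in mouse embryonic stem cells of the E14Tg2a line after knockdown of Ncl, which encodes the nucleolar protein nucleolin. The genes were chosen by symbol. They comprised every gene whose symbol begins with Atp6v or Atp6ap, every gene named Cts plus a single letter, and 18 named lysosomal genes, each read from the probe set with the highest mean over the 6 arrays. This gave 57 of the 18194 genes with a probe set that carries a single gene symbol: 22 V-ATPase genes, 18 cathepsins, 9 other hydrolases or their cofactors, 5 membrane or cholesterol-export genes and 3 regulators. Cd63, which is also on the list, and the V-ATPase gene Atp6v0c had no such probe set and were not analysed here. The groups were cells given Ncl siRNA #1, cells given Ncl siRNA #2 and cells given a control siRNA against firefly luciferase. All were E14Tg2a cells sampled at 96 h, with 2 Affymetrix arrays per group, and no other genetic change or agent is named for any group. The cells are a single line. The labels do not say whether the 2 arrays of a group came from separate cultures, and p-values here reflect array-to-array spread alone, which may be technical.

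The lysosome is the acidic compartment in which cells break down proteins, lipids and sugar chains. The V-ATPase acidifies it: a peripheral V1 sector hydrolyses ATP, and a V0 sector in the membrane carries the protons. Cathepsins and other hydrolases reach the lysosome through the secretory pathway, and the factors TFEB, TFE3 and MITF, which mTORC1 holds in the cytoplasm in nutrient-rich cells, bind CACGTG-containing elements in the promoters of many lysosomal genes.

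Values are log2 signals per probe set, so levels are compared between arrays and never between genes. Ncl itself read 13.77 and 13.74 with Ncl siRNA #1 and 13.77 and 13.72 with Ncl siRNA #2, against 14.21 and 14.21 with the control siRNA. The embryonic stem cell marker Pou5f1 lay between 13.00 and 13.32 on the Ncl siRNA arrays and at 13.56 and 13.61 on the control arrays. The 2 control arrays stood apart from the others: 13 of 14 lung epithelial markers were lower with the Ncl siRNAs, and the mean level of these markers was 5.10 to 5.30 on the 4 Ncl siRNA arrays, against 8.02 and 8.21 on the control arrays. Scgb1a1, the secretoglobin of airway club cells, lay between 3.29 and 4.01 on the Ncl siRNA arrays and at 12.96 on both control arrays. The bacterial poly-A control probe sets, spiked in before labelling on arrays of this type, averaged 7.83 to 8.25 on the Ncl siRNA arrays, against 7.27 and 7.13 on the control arrays. Of 12 stromal and endothelial markers 7 fell (58.3%) and 2 rose (16.7%), and of 10 embryonic stem cell markers 7 fell (70%) and 1 rose (10%). Over all genes, 21.7% fell and 20.3% rose at the threshold given below. The part of these differences in the values below was not tested. In bulk RNA such as this, fewer cells of a type and less RNA per cell cannot be told apart.

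Across the mean of both Ncl siRNAs, lysosomal genes moved in both directions. With limma at a Benjamini-Hochberg adjusted p under 0.05, 16 of 57 rose (28.1%) and 15 fell (26.3%), beside 20.3% and 21.7% of all 18194 genes, and 26 did not pass. Together 31 passed (54.4%), beside 42.0% of all genes. With a minimum of 1.5-fold besides, 5 rose and 5 fell (8.77% each), beside 9.48% and 6.45% of all genes. The median difference was -0.09, against -0.05 over all genes. Among the 40 members whose mean signal was at or above the median of all genes, 16 rose (40.0%) and 13 fell (32.5%), beside 32.0% and 34.4% of the 9097 genes this bright. All 4 Ncl siRNA arrays lay above both control arrays for 15 members (26.3%; 23.4% of all genes) and below them for 16 (28.1%; 26.7% of all genes). The widest rises were in Ctsd, Atp6v0e2, Asah1, Psap and Ctsf, and the widest falls in Ctss, Glb1, Hexa, Gla and Gusb.

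**Figure D1:**
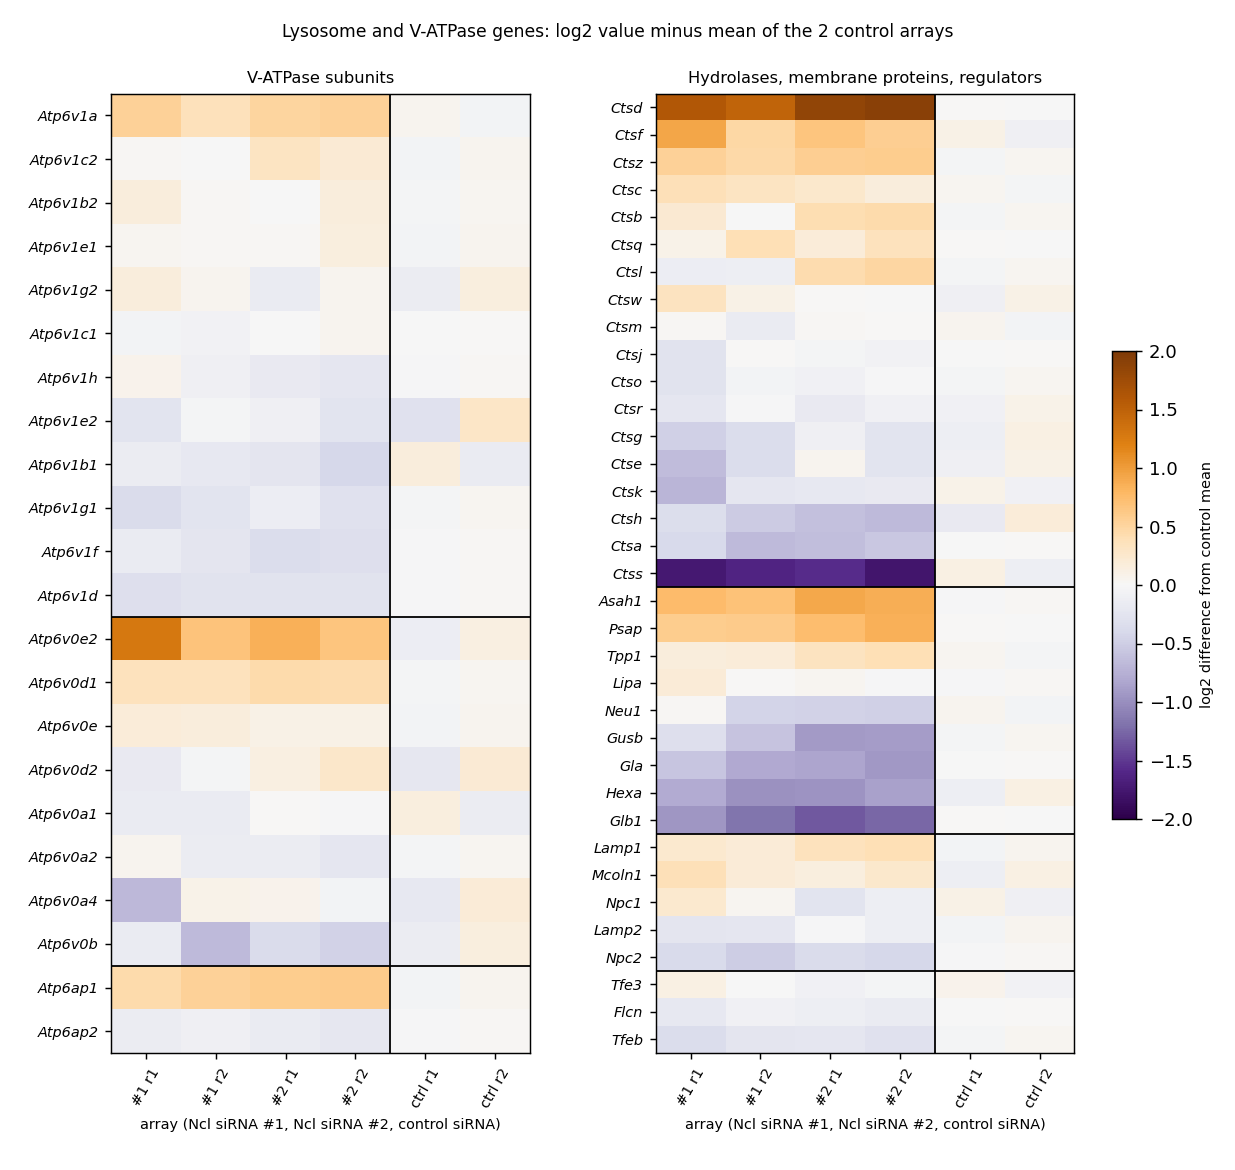
Log2 signal of each member on each of the 6 arrays minus its mean over the 2 control arrays, with genes down the page grouped by role and arrays of Ncl siRNA #1, Ncl siRNA #2 and the control siRNA from left to right. Ctsd is higher on every Ncl siRNA array (1.71 on average), Ctss lower on every one (-1.68), and the mean differences of the V-ATPase genes range between -0.41 and 0.87.

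Each siRNA gave a similar count on its own. With Ncl siRNA #1, 14 members rose and 15 fell, beside 20.2% and 17.3% of all genes. With Ncl siRNA #2, 13 rose and 15 fell, beside 17.7% and 21.7% of all genes. With a 1.5-fold minimum the counts were 5 and 4 with Ncl siRNA #1 (9.96% and 5.47% of all genes) and 6 and 7 with Ncl siRNA #2 (9.40% and 8.63% of all genes). Both comparisons use the same 2 control arrays, so their values are given side by side only. Ctsd was at 1.54 with Ncl siRNA #1 and 1.88 with Ncl siRNA #2, Asah1 at 0.72 and 0.89, and Psap at 0.59 and 0.80. On the lower side, Ctss was at -1.69 with Ncl siRNA #1 and -1.68 with Ncl siRNA #2, Glb1 at -1.06 and -1.29, and Hexa at -0.88 and -0.91. These 6 genes passed with each siRNA.

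**Figure D2:**
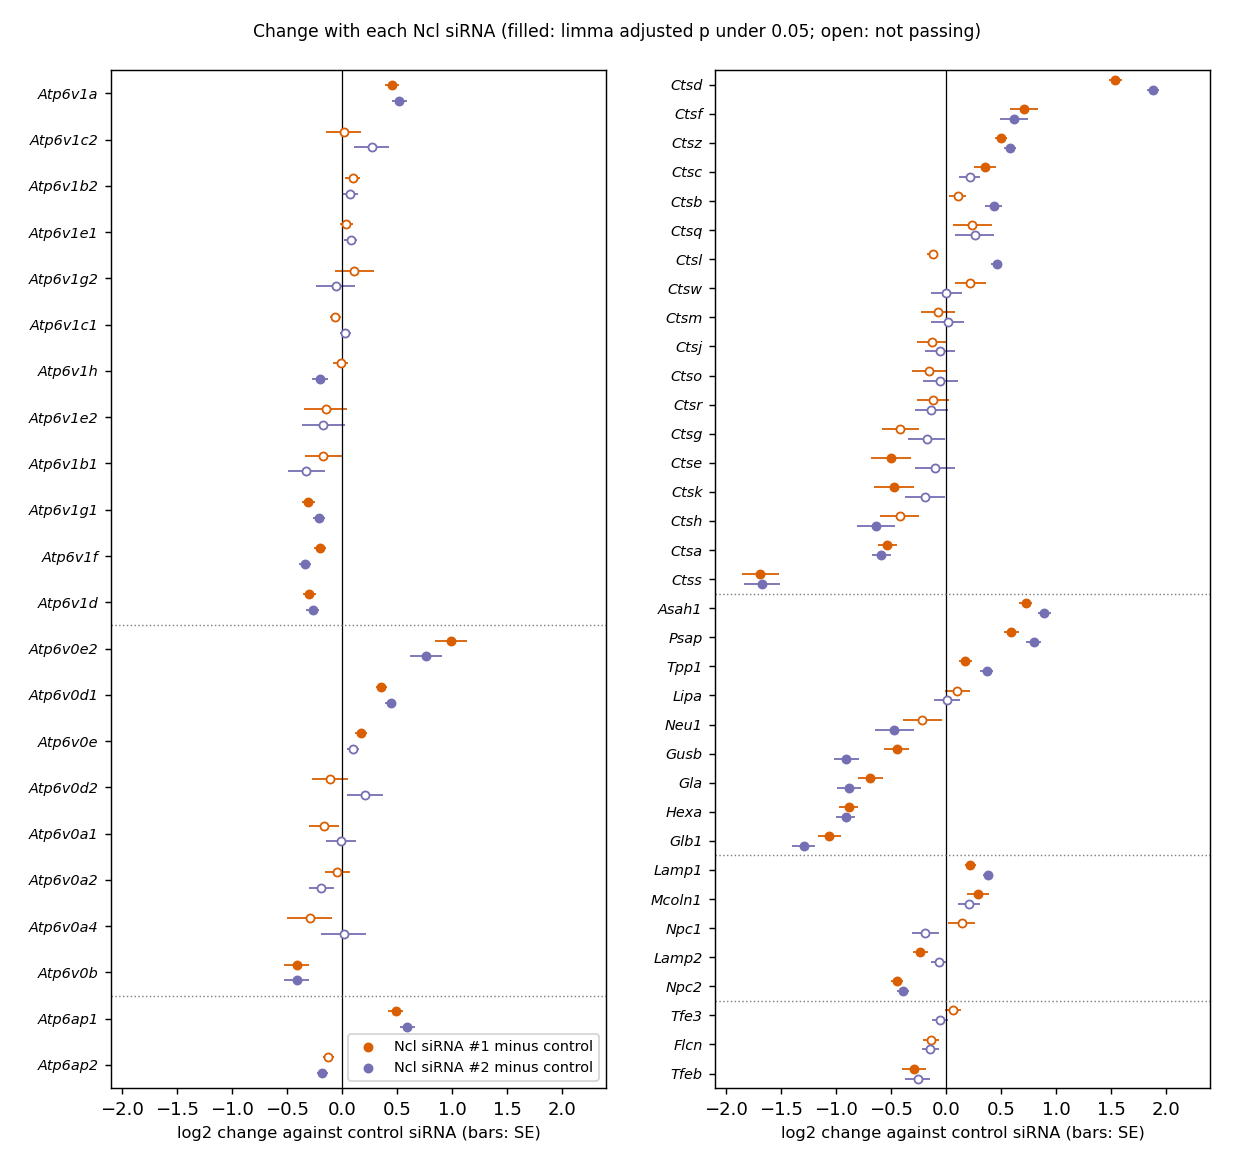
Difference from control on the log2 scale for each member, with a point and standard error for Ncl siRNA #1 and for Ncl siRNA #2, which share the 2 control arrays. Ctsd is at 1.54 with Ncl siRNA #1 and 1.88 with Ncl siRNA #2, and Ctsl at -0.12 and 0.46.

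The CACGTG motif was looked for in the promoters of the members because TFEB and its relatives bind elements that contain it. RefSeq promoter sequences (GRCm38.p6, 250 bases before to 50 after each transcription start) matched 45 of the 57 members, and the motif, which reads the same on both strands, was in 12 of the 45 (26.7%). It was in 7.15% of all 32851 such promoters, in 10.2% of the 14453 tested genes with a promoter and in 12.8% of the 7492 of these whose mean signal was at or above the median. Of the members with a promoter, 8 of the 14 that rose, 4 of the 13 that fell and 0 of the 18 that did not pass held it, and 13 of those 18 had a mean signal below the median of all genes. Asah1 and Ctsb, which rose, and Atp6v1g1 and Ctsh, which fell, had no promoter entry. All genes were not split in this way, so these counts by direction have no background share. Whether the motif goes with a change was not tested. The longer form TCACGTGA, which contains the first motif, was in 7 of the 45 (15.6%) and in 2.55% of the 7492 genes at or above the median, counting any promoter of a gene. A match is a run of letters and not a measured binding site. The stretches that follow are 100 bases each from 5′ to 3′ on the strand of the gene, with CACGTG in capitals. They are from 4 members that rose and then 4 that fell by their brightest probe sets, to show the motif at genes that moved in opposite directions. These 4 are all the members with the motif that fell. The changes of Mcoln1 and Atp6v0b are less secure, as given below: Mcoln1 was at 0.13 without the first control array and Atp6v0b at -0.26 without the second.
Ctsd: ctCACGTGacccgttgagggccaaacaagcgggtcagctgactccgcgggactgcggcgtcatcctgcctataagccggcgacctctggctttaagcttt
Lamp1: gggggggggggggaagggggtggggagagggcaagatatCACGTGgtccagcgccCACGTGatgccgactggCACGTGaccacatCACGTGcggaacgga
Mcoln1: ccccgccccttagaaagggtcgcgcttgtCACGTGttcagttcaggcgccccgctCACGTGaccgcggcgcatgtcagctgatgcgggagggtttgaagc
Atp6v1a: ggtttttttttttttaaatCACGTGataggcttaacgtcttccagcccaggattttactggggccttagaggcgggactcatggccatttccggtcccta
Glb1: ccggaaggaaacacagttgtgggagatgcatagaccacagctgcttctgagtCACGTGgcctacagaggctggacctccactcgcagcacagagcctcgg
Gla: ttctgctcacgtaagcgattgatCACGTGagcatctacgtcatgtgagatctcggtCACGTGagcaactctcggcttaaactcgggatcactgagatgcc
Atp6v0b: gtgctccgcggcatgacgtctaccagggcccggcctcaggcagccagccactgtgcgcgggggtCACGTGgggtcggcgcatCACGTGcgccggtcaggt
Ctsa: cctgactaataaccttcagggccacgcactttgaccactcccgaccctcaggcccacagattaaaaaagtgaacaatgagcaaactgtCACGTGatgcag

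The stretches of Ctsd (chr7:142387828-142387927, minus strand), Lamp1 (chr8:13159061-13159160, plus strand), Mcoln1 (chr8:3500419-3500518, plus strand), Glb1 (chr9:114400978-114401077, plus strand), Atp6v0b (chr4:117887330-117887429, minus strand) and Ctsa (chr2:164833673-164833772, plus strand) end at the base before the start. That of Atp6v1a (chr16:44139310-44139409, minus strand) runs over positions -150 to -51, and that of Gla (chrX:134601156-134601255, minus strand) over positions -250 to -151. Lamp1 held 4 copies of the motif between positions -61 and -15, more than any other promoter printed here, and rose by 0.30. Ctsd held copies at -245 and -98 and rose by 1.71. Whether the number of copies goes with the size of a change was not tested. The other members with the motif were Atp6v0d1, Atp6v0e, Ctsf and Ctsl.

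The V-ATPase genes were divided. Of the 22 genes, 5 rose and 5 fell (22.7% each, against 20.3% and 21.7% of all genes), and the median difference was -0.05. In the V1 sector, 1 of 12 rose (8.33%), 3 fell (25%) and 8 did not pass. Atp6v1a, the catalytic A subunit, read 11.26 and 11.09 with Ncl siRNA #1 and 11.23 and 11.26 with Ncl siRNA #2, against 10.77 and 10.68 with the control siRNA. All 4 Ncl siRNA arrays lay above both control arrays, and the rise was 0.49 on the log2 scale (SE 0.06, limma adjusted p = 2.89e-07). Atp6v1d, the D subunit of the rotating central stalk, read 11.05 and 11.10 with Ncl siRNA #1 and 11.11 and 11.10 with Ncl siRNA #2, against 11.36 and 11.40 with the control siRNA. The 4 Ncl siRNA arrays were all below the controls, a difference of -0.28 (SE 0.05, adjusted p = 5.61e-05). Atp6v1f and Atp6v1g1, of the central and a peripheral stalk, fell by 0.27 and 0.26. The other 8 V1 genes ranged between -0.25 and 0.14. They include Atp6v1b1, Atp6v1c2, Atp6v1e2 and Atp6v1g2, isoforms known mainly from kidney, testis or brain. Among the 8, Atp6v1h passed with Ncl siRNA #2 (-0.20, limma adjusted p = 0.026) but not with Ncl siRNA #1 (-0.01).

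In the V0 sector 3 of 8 genes rose (37.5%), 1 fell (12.5%) and 4 did not pass, again against 20.3% and 21.7% of all genes. Atp6v0e2, an isoform of the small e subunit, read 8.86 and 8.26 with Ncl siRNA #1 and 8.43 and 8.24 with Ncl siRNA #2, against 7.44 and 7.70 with the control siRNA. It rose 1.83-fold (log2 0.87, SE 0.13, adjusted p = 7e-06), the widest V-ATPase change, and its 2 arrays with Ncl siRNA #1 lay farther apart than those of the other groups. Atp6v0d1, the d subunit that links the sectors, read 11.91 and 11.90 with Ncl siRNA #1 and 11.99 and 11.99 with Ncl siRNA #2, against 11.51 and 11.59 with the control siRNA. The groups did not overlap and the rise was 0.40 (SE 0.05, adjusted p = 2.16e-07). Atp6v0e, the other e subunit gene, rose by 0.14 (adjusted p = 0.0211), and did not pass without the first control array (0.085) or either array of Ncl siRNA #2. Atp6v0b, a proteolipid of the rotor ring, read 10.30 and 9.80 with Ncl siRNA #1 and 10.09 and 10.01 with Ncl siRNA #2, against 10.31 and 10.61 with the control siRNA. Its fall of 0.41 (SE 0.10, adjusted p = 0.00147) rested on the second control array: without it the difference was -0.26 and did not pass. The other probe sets of Atp6v0b were at -0.16 and 0.09 and did not pass. The remaining 4 genes, Atp6v0a1, Atp6v0a2, Atp6v0a4 and Atp6v0d2, were between -0.14 and 0.05, and Atp6v0d2, known from osteoclasts, lay below the lower quartile on all 6 arrays.

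Of the 2 accessory subunits, 1 rose, and the direction of the other depended on the probe set. Atp6ap1, a glycoprotein of the V0 sector needed for its assembly, read 10.52 and 10.61 with Ncl siRNA #1 and 10.67 and 10.68 with Ncl siRNA #2, against 10.03 and 10.13 with the control siRNA. It rose 1.45-fold (log2 0.54, SE 0.06, adjusted p = 8.95e-08), and the groups did not overlap. Atp6ap2, the prorenin receptor, read 11.85 and 11.90 with Ncl siRNA #1 and 11.84 and 11.80 with Ncl siRNA #2, against 11.99 and 12.02 with the control siRNA. The difference was -0.15 (SE 0.04, adjusted p = 0.00792), and -0.14 without passing when the second control array was left out. With probe sets left out whose suffix (_x_at or _s_at) marks matches to several transcripts, another probe set stood for Atp6ap2, gave 0.14 and passed (adjusted p = 0.0412), so no direction is given for this gene, which the counts hold as fallen by its brightest probe set.

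Of the 18 cathepsins, 6 rose (33.3%), 3 fell (16.7%) and 9 did not pass, against 20.3% and 21.7% of all genes, and the median difference was -0.06. Ctsd, the main lysosomal aspartic protease, read 12.01 and 11.89 with Ncl siRNA #1 and 12.26 and 12.32 with Ncl siRNA #2, against 10.42 and 10.40 with the control siRNA. Every Ncl siRNA array was more than 1 log2 unit above both controls. The rise was 3.27-fold (log2 1.71, SE 0.05, adjusted p = 3.63e-17), the widest of the 57 genes. Ctsz, a cysteine carboxypeptidase, read 11.67 and 11.60 with Ncl siRNA #1 and 11.72 and 11.73 with Ncl siRNA #2, against 11.10 and 11.18 with the control siRNA. It rose 1.45-fold (log2 0.54, SE 0.05, adjusted p = 6.35e-09). Ctsf, a cysteine endopeptidase, read 8.71 and 8.25 with Ncl siRNA #1 and 8.44 and 8.34 with Ncl siRNA #2, against 7.88 and 7.67 with the control siRNA. It rose 1.58-fold (log2 0.66, SE 0.11, adjusted p = 4.13e-05). Ctsc, the dipeptidyl peptidase that activates granule serine proteases, rose by 0.28 (SE 0.08, adjusted p = 0.00983), and did not pass without the second control array (0.25) or the first array of Ncl siRNA #2 (0.26).

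Ctsb and Ctsl, widely expressed cysteine proteases, passed by their brightest probe sets on the mean of both siRNAs and with Ncl siRNA #2, but not with Ncl siRNA #1. Ctsl read 12.80 and 12.87 with Ncl siRNA #2 and 12.25 and 12.26 with Ncl siRNA #1, against 12.34 and 12.41 with the control siRNA. The arrays of Ncl siRNA #2 lay above the controls and those of Ncl siRNA #1 below them: the difference from control was 0.46 for Ncl siRNA #2 (adjusted p = 9.28e-08) and -0.12 for Ncl siRNA #1 (adjusted p = 0.0558). Ctsb read 10.22 and 10.24 with Ncl siRNA #2 and 10.02 and 9.79 with Ncl siRNA #1, against 9.76 and 9.85 with the control siRNA. Its difference from control was 0.43 for Ncl siRNA #2 (adjusted p = 0.000116) and 0.10 for Ncl siRNA #1 (adjusted p = 0.336). Another probe set of Ctsb read 9.04 and 9.02 with Ncl siRNA #2 and 8.69 and 8.59 with Ncl siRNA #1, against 8.01 and 8.10 with the control siRNA. It passed with each siRNA, at 0.97 for Ncl siRNA #2 (adjusted p = 6.01e-07 over the probe sets) and 0.58 for Ncl siRNA #1 (adjusted p = 0.000194), and was at 0.78 on the mean of both. On the mean of both siRNAs, the brightest probe set of Ctsb was at 0.27 (adjusted p = 0.00291) and that of Ctsl at 0.17 (adjusted p = 0.00254), and neither passed without the first control array (0.22 and 0.13). With all its probe sets averaged Ctsl was at -0.075.

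The 3 cathepsins that fell were Ctss, Ctsa and Ctsh. Ctsa, a serine carboxypeptidase that also binds and protects the Glb1 and Neu1 enzymes, read 9.51 and 9.24 with Ncl siRNA #1 and 9.28 and 9.36 with Ncl siRNA #2, against 9.90 and 9.92 with the control siRNA. It fell to 67.7% of the control level (log2 -0.56, SE 0.08, adjusted p = 2.06e-06). Ctss, the cathepsin of antigen-presenting cells that trims the invariant chain, read 3.79 and 3.89 with Ncl siRNA #1 and 3.96 and 3.76 with Ncl siRNA #2, against 5.65 and 5.41 with the control siRNA. The Ncl siRNA arrays were all below the lower quartile of their probe sets, so the fitted -1.68 (SE 0.14, adjusted p = 2.74e-09) is not a measured ratio of 2 levels. Ctsh, an aminopeptidase abundant in lung, read 5.93 and 5.74 with Ncl siRNA #1 and 5.64 and 5.60 with Ncl siRNA #2, against 6.07 and 6.44 with the control siRNA. Its fall of 0.53 (SE 0.15, adjusted p = 0.00677) no longer passed without the second control array, where the difference was -0.34.

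Markers of lung epithelium were lower along with Ctss and Ctsh, as given above, and markers of macrophages and leukocytes moved both ways. Lyz2, lysozyme of macrophages and lung alveolar cells, lay between 5.20 and 5.37 on the Ncl siRNA arrays, against 8.69 and 8.94 on the control arrays. The surfactant gene Sftpc lay between 4.80 and 5.11 on the Ncl siRNA arrays, against 10.63 and 10.88 on the control arrays. Of 25 macrophage and leukocyte markers, 6 fell (24%), 4 rose (16%) and 15 did not pass, against 21.7% and 20.3% of all genes, and their mean level was 5.32 to 5.39 on the Ncl siRNA arrays, against 5.63 and 5.67 on the control arrays. Below the lower quartile lay 6 of the 25 on all Ncl siRNA arrays and 4 on both control arrays. The pan-leukocyte gene Ptprc did not pass (log2 -0.32, adjusted p = 0.134), whereas the complement gene C1qa fell by 1.00 (adjusted p = 7.87e-06). The 4 markers that rose were Siglecf by 0.49, Mrc1 by 0.38, Cd68 by 0.36 and Laptm5 by 0.26, and the others that fell were Cd74 by 0.83, Chil3 by 0.72, Cybb by 0.71 and Tyrobp by 0.56. Of 10 neutrophil, B cell and T cell markers 2 fell and 8 did not pass. The part of these cells' RNA in the Ctss and Ctsh values was not tested. Ctsk, the collagen-cutting cathepsin of osteoclasts, read 4.39 and 4.87 with Ncl siRNA #1 and 4.91 and 4.92 with Ncl siRNA #2, against 5.19 and 5.02 with the control siRNA. It was at -0.33 and did not pass (adjusted p = 0.102), though it did at -0.45 without the second array of Ncl siRNA #1. Against control it passed with Ncl siRNA #1 (-0.47, limma adjusted p = 0.0473) but not with Ncl siRNA #2 (-0.19). Other cathepsins known mainly from blood or stomach did not pass on the mean of both siRNAs either: the differences were -0.30 for Ctsg of neutrophils, -0.30 for Ctse of stomach and immune cells, and 0.11 for Ctsw of cytotoxic lymphocytes. Ctse passed with Ncl siRNA #1 (-0.50, limma adjusted p = 0.0324) but not with Ncl siRNA #2 (-0.10).

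**Figure D3:**
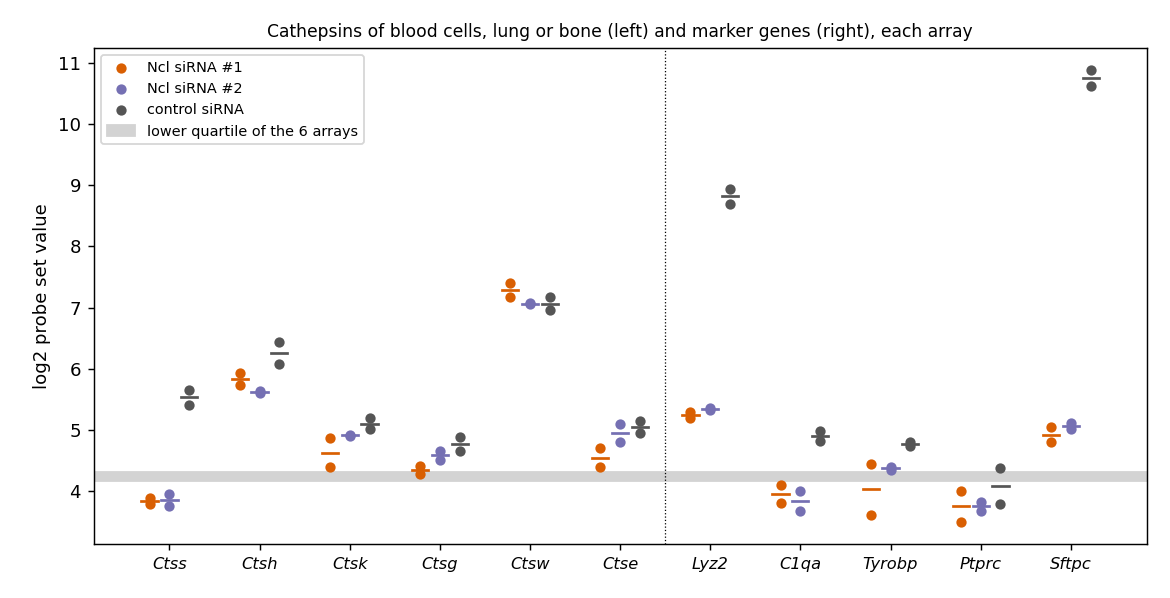
Log2 signal on each array for cathepsins and for markers of other cells, with Ncl siRNA #1, Ncl siRNA #2 and control arrays from left to right as points. The bars are group means and the grey band spans the lower quartiles of the 6 arrays. Ctss, Lyz2 and Sftpc are lower on all 4 Ncl siRNA arrays than on both control arrays, while the groups of Ctsw overlap. The markers drawn are a selection: of 25 macrophage and leukocyte markers 6 fell and 4 rose, and those that rose are not drawn.

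The mouse placental cathepsins Ctsj, Ctsm, Ctsq and Ctsr did not pass in the mean of both siRNAs, with differences between -0.13 and 0.25, and Ctsj, Ctsm and Ctsr lay below the lower quartile on all 6 arrays. Ctso, a cysteine protease, was also below it on all 6 arrays (log2 difference -0.11). Beside them, 8 of 11 trophoblast markers rose (72.7%) and 1 fell (9.09%), against 20.3% and 21.7% of all genes. Krt19, a keratin of trophoblast and other epithelia, lay between 10.21 and 10.52 on the Ncl siRNA arrays, against 6.62 and 6.46 on the control arrays.

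Of the 9 other hydrolases and cofactors 3 rose (33.3%), 4 fell (44.4%) and 2 did not pass, against 20.3% and 21.7% of all genes, and the median difference was -0.34. Among genes at or above the median signal, 32.0% rose and 34.4% fell. The 3 that rose serve lipid and peptide breakdown. Asah1, acid ceramidase, read 11.41 and 11.35 with Ncl siRNA #1 and 11.57 and 11.52 with Ncl siRNA #2, against 10.63 and 10.69 with the control siRNA, a rise of 1.75-fold (log2 0.81, SE 0.05, adjusted p = 1.49e-11). Psap, the precursor of the saposins that present sphingolipids to their enzymes, read 10.41 and 10.42 with Ncl siRNA #1 and 10.57 and 10.67 with Ncl siRNA #2, against 9.84 and 9.81 with the control siRNA. It rose 1.62-fold (log2 0.69, SE 0.06, adjusted p = 1.95e-09). Tpp1, tripeptidyl peptidase, rose by 0.27 (SE 0.05, adjusted p = 0.000139), and was at 0.06 without passing when all its probe sets were averaged.

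The 4 genes that fell in this group all encode glycosidases, which cut single sugars from glycolipids and glycosaminoglycans. Glb1, beta-galactosidase, read 8.20 and 7.97 with Ncl siRNA #1 and 7.81 and 7.90 with Ncl siRNA #2, against 9.15 and 9.15 with the control siRNA. It fell to 44.2% of the control level (log2 -1.18, SE 0.09, adjusted p = 5.05e-10). Hexa, the alpha chain of beta-hexosaminidase, read 9.62 and 9.43 with Ncl siRNA #1 and 9.45 and 9.55 with Ncl siRNA #2, against 10.29 and 10.52 with the control siRNA. It fell to 53.6% (log2 -0.90, SE 0.07, adjusted p = 1.66e-09). Gla, alpha-galactosidase A, read 8.09 and 7.86 with Ncl siRNA #1 and 7.82 and 7.74 with Ncl siRNA #2, against 8.65 and 8.67 with the control siRNA. It fell to 58.0% (log2 -0.79, SE 0.10, adjusted p = 5.08e-07), but the mean of its probe sets gave -0.22 and did not pass. Gusb, beta-glucuronidase, read 8.25 and 7.98 with Ncl siRNA #1 and 7.65 and 7.67 with Ncl siRNA #2, against 8.53 and 8.61 with the control siRNA, and fell to 62.5% (log2 -0.68, SE 0.10, adjusted p = 5.1e-06). In all 4 the groups did not overlap. Neu1, the lysosomal sialidase that joins Glb1 and Ctsa in a complex, was at -0.34 (SE 0.15, adjusted p = 0.0766) and passed at -0.46 without the first array of Ncl siRNA #1. Against control Neu1 passed with Ncl siRNA #2 (-0.47, limma adjusted p = 0.0369) but not with Ncl siRNA #1 (-0.22). Lipa, acid lipase, was at 0.05 (adjusted p = 0.722), but at -0.94 in another probe set, which passed.

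Glycosidases did not all fall beyond these members. In a list of 26 further lysosomal hydrolases, 6 rose (23.1%) and 8 fell (30.8%), against 20.3% and 21.7% of all genes. Man2b1, lysosomal alpha-mannosidase, read 11.94 and 11.92 with Ncl siRNA #1 and 12.12 and 12.28 with Ncl siRNA #2, against 9.56 and 9.69 with the control siRNA. Its rise of 2.44 (SE 0.06, adjusted p = 4.76e-19) was wider than that of Ctsd. Manba, beta-mannosidase, fell by 0.83 (SE 0.06) and Dnase2a, which digests DNA in lysosomes, by 1.36 (SE 0.09), while Smpd1, acid sphingomyelinase, rose by 0.95 (SE 0.09).

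Of the 5 membrane and cholesterol-export genes 2 rose, 2 fell (Npc2 and, by its brightest probe set, Lamp2) and 1 did not pass. These are 40% each, against 20.3% and 21.7% of all genes, and 32.0% and 34.4% of the genes at or above the median signal. Lamp1, a main glycoprotein of the lysosomal membrane, read 12.89 and 12.85 with Ncl siRNA #1 and 13.01 and 13.06 with Ncl siRNA #2, against 12.60 and 12.71 with the control siRNA. The groups did not overlap, and the rise was 1.23-fold (log2 0.30, SE 0.04, adjusted p = 3.6e-06). Npc2, which hands cholesterol to the membrane protein Npc1, read 11.77 and 11.63 with Ncl siRNA #1 and 11.77 and 11.73 with Ncl siRNA #2, against 12.12 and 12.16 with the control siRNA. It fell to 74.8% (log2 -0.42, SE 0.05, adjusted p = 2.34e-07), whereas Npc1 was at -0.02 (adjusted p = 0.887). Npc1 read 8.02 and 7.82 with Ncl siRNA #1 and 7.52 and 7.66 with Ncl siRNA #2, against 7.88 and 7.68 with the control siRNA, so the groups overlapped. Mcoln1, the lysosomal cation channel TRPML1, was at 0.25 (SE 0.09, adjusted p = 0.0272), and at 0.13 without passing when the first control array was left out. It also did not pass without the first array of Ncl siRNA #1 or the second of Ncl siRNA #2. A dimmer probe set of Mcoln1 passed on the mean of both siRNAs, at 0.56 (limma adjusted p = 0.000194 over the probe sets). That probe set passed with either siRNA alone: 0.61 under Ncl siRNA #1 (adjusted p = 0.000397) and 0.50 under Ncl siRNA #2 (adjusted p = 0.00202). The dimmest probe set of this gene was at 0.03 and did not pass.

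Lamp2, the partner of Lamp1, had probe sets that went opposite ways. Its brightest read 10.13 and 10.14 with Ncl siRNA #1 and 10.35 and 10.25 with Ncl siRNA #2, against 10.32 and 10.43 with the control siRNA. The groups overlapped and the difference was -0.15 (SE 0.06, adjusted p = 0.0466), which did not pass with the replicate block (adjusted p = 0.0682) or without either control array or either array of Ncl siRNA #2. Its other probe sets included differences of 0.69 and 0.25 that passed in the opposite direction, so no direction is given for this gene. Over the 19 members that passed and had further probe sets, 12 of 34 further probe sets passed the same way, 2 passed the opposite way (both of Lamp2) and 20 did not pass.

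**Figure D4:**
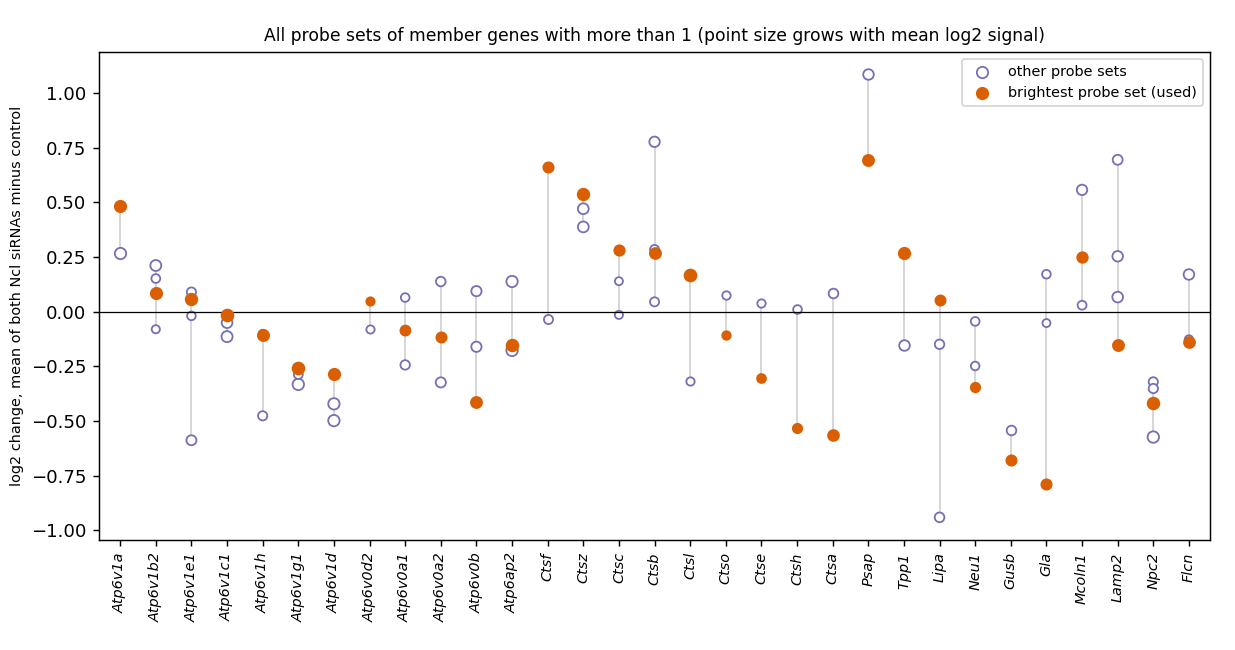
Difference on the log2 scale, mean of both Ncl siRNAs minus control, for every single-symbol probe set of members with more than 1. The brightest probe set of a gene, used in the text, is filled and the others are open, points grow with the mean signal, and the points of Lamp2 lie on both sides of 0, between -0.15 and 0.69.

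Of the 3 regulators 1 fell (33.3%, against 21.7% of all genes) and 2 did not pass. Tfeb, a factor that activates lysosomal genes, was at -0.28 (SE 0.10, adjusted p = 0.0261), with 7.72 and 7.84 with Ncl siRNA #1 and 7.85 and 7.78 with Ncl siRNA #2, against 8.04 and 8.11 with the control siRNA. It did not pass when either control array or either array of Ncl siRNA #2 was left out. Tfe3, its relative, read 10.12 and 10.00 with Ncl siRNA #1 and 9.92 and 9.97 with Ncl siRNA #2, against 10.07 and 9.94 with the control siRNA. It was at 0.00 (SE 0.06, adjusted p = 0.999), and Flcn, folliculin, which promotes mTORC1-dependent retention of these factors in the cytoplasm, was at -0.14 (SE 0.06, adjusted p = 0.0849). Flcn read 9.73 and 9.84 with Ncl siRNA #1 and 9.80 and 9.76 with Ncl siRNA #2, against 9.92 and 9.92 with the control siRNA, and passed at -0.17 without the second array of Ncl siRNA #1. Mitf, the relative of Tfeb that is not among the members, read 7.40 and 7.10 with Ncl siRNA #1 and 6.69 and 6.67 with Ncl siRNA #2, against 8.71 and 8.67 with the control siRNA. It fell by 1.73 (SE 0.11, adjusted p = 2.72e-11). These are transcript levels, and where the proteins lie in the cell was not measured.

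Other genes of the pathway were read from lists, against 20.3% of all genes that rose and 21.7% that fell. Both shares were larger among genes at or above the median signal, at 32.0% and 34.4%, and the lists were not matched for signal. A list of 27 genes held the Rag GTPases, Ragulator and mTORC1, which sense nutrients at the lysosome, and regulators tied to them. Of these 27, 15 fell (55.6%) and 3 rose (11.1%), with a median of -0.21. The list includes Mitf, whose fall is given above, Tfec, Tsc1, Tsc2 and the sestrins. Its genes do not all act the same way, so the count gives no direction for the activity of mTORC1. Fnip2, a folliculin partner, fell by 0.97 (SE 0.07), and Sesn3, a sestrin that restrains mTORC1, rose by 1.23 (SE 0.08). Of 29 autophagy genes, 11 rose (37.9%) and 7 fell (24.1%), with a median of 0.09. Vmp1, needed to form autophagosomes, rose by 0.99 (SE 0.06) and Wipi1 by 0.86 (SE 0.12), while Map1lc3b, the LC3 protein of autophagosome membranes, fell by 0.69 (SE 0.04), and Atg101, of the complex that starts autophagy, by 0.63 (SE 0.07). A list of V-ATPase assembly factors together with the a3 subunit held 10 genes in all, of which 5 fell (50%) and 1 rose (10%). The 1 that rose was Tcirg1, the a3 subunit itself, by 0.85 (SE 0.11), while Tmem199 and Dmxl1, of the assembly machinery, fell by 0.60 (SE 0.07) and 0.58 (SE 0.12).

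Of 26 genes that sort enzymes to the lysosome or fuse vesicles with it, 7 rose (26.9%) and 5 fell (19.2%). Igf2r, the receptor for mannose-6-phosphate tags, rose by 0.63 (SE 0.10), and Vamp8, a SNARE of vesicle fusion, by 0.57 (SE 0.09), while Gnptab and Nagpa, which make that tag, fell by 0.60 (SE 0.09) and 0.53 (SE 0.09). Of 24 further membrane proteins, 7 rose and 6 fell, and Sidt2, a lysosomal membrane protein linked to RNA uptake, rose by 1.29 (SE 0.09), and Tmem55a, a phosphoinositide phosphatase, by 0.80 (SE 0.06). The nucleoside transporter Slc29a3 and the transporter Mfsd1 fell by 0.87 (SE 0.09) and 0.71 (SE 0.07). Of 6 cystatins and other cathepsin inhibitors, 2 rose and 1 fell, and Cstb, which inhibits cysteine cathepsins, rose by 0.78 (SE 0.05). Cst6, another cystatin, rose by 0.56 (SE 0.15), and the serpin gene Serpinb6a fell by 0.32 (SE 0.06).

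**Figure D5:**
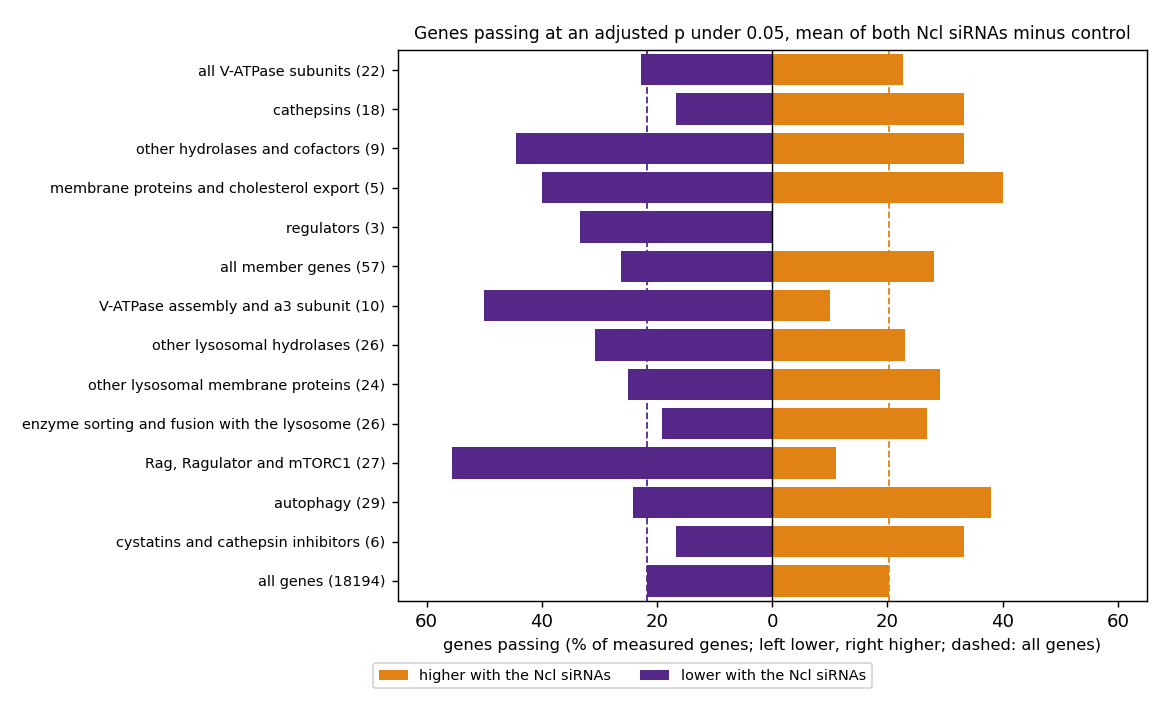
Share of the measured genes of each role or list that passed at an adjusted p under 0.05 in the mean of both Ncl siRNAs minus control, higher to the right and lower to the left, in percent; dashed lines are the shares of all 18194 genes, 20.3% higher and 21.7% lower. The Rag, Ragulator and mTORC1 list, which includes Mitf, holds 15 lower and 3 higher of 27, while the V-ATPase holds 5 each of 22.

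Set directly against each other, the siRNAs differed in few members. With Ncl siRNA #2, 5 members were higher than with Ncl siRNA #1 (8.77%; 2.30% of all genes) and 1 was lower (1.75%; 6.18% of all genes). The 5 were Ctsl by 0.58 (SE 0.05, adjusted p = 1.02e-07), Ctsd by 0.34 (SE 0.06, adjusted p = 0.000548), Ctsb by 0.33 (SE 0.08, adjusted p = 0.0126), Tpp1 by 0.19 (SE 0.06, adjusted p = 0.0418) and Lamp1 by 0.16 (SE 0.05, adjusted p = 0.0437). Gusb was lower by 0.46 on the log2 scale (SE 0.11, adjusted p = 0.014). With a 1.5-fold minimum 0 members passed in either direction by limma, beside 0.852% and 0.874% of all genes. Without either array of Ncl siRNA #2, Ctsb, Tpp1, Lamp1 and Gusb did not pass. Gusb (-0.33) and Tpp1 also did not without the first array of Ncl siRNA #1, nor Tpp1 without either control array, and Lamp1 did not without any single array. The counts moved likewise: leaving out single arrays gave 2 to 6 higher and 0 to 8 lower, with 8 lower without the second array of Ncl siRNA #1. There 16.5% of all genes were lower and 7.15% higher, so the lower share rose over all genes too.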

How the data were processed

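Total RNA was hybridised to 6 single-colour Affymetrix arrays after RNeasy extraction and biotin labelling with an IVT kit, per the labels' protocols. The deposited table holds log2 values per probe set that the authors normalized between arrays, by a method not given in the sources used here. The 45101 probe sets ranged between 2.47 and 15.34, and array medians between 5.73 and 5.79. Of them, 34958 carried 1 gene symbol in the platform annotation, 932 several and 9211 none. The brightest probe set stood for each gene. The 3 groups were fitted over all 6 arrays with limma 3.58.1 (R 4.3.3, lmFit, eBayes with trend), and p-values, after Benjamini-Hochberg adjustment across 18194 genes, were read at a threshold of 0.05, with 3 residual and 17.5 prior degrees of freedom. Precision is limited by the 2 arrays per group. The arrays' replicate numbers did not pair them (deviation correlations -0.019, -0.0046 and 0.0099). Tested on simulated data for the mean of both siRNAs (18194 genes), the fit recovered 4 of 50 genes changed by 0.3, 15 of 50 by 0.5, 42 of 50 by 1 and 49 of 50 by 2 on the log2 scale, with 4 false calls in all. Only 50 genes of each size were changed there, whereas 42.0% of all genes passed in the measured data. The adjustment is less strict where more genes pass, so these rates do not give the recovery or false calls of the measured data.

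The members, the lists of pathway and marker genes, and the tests were chosen with earlier results of these data known. All members are accounted for by value or range. From each pathway list, the rule named up to 2 genes with the widest change in each direction among those that passed in the same direction with each siRNA. Alternatives covered probe set choice, probe set filters, scaling, variance trend, a 1.5-fold minimum, a brightness filter, the replicate block, single arrays left out and, chosen after seeing the data, marker genes of other cells left out, which leaves every member's value as it is and touches only the adjustment.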

Additional observations from a re-analysis of the deposited data

Results flagged for a closer look

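Between the siRNAs, limma's direct comparison passed for Ctsl (0.58 on the log2 scale, Ncl siRNA #2 minus Ncl siRNA #1), Ctsd (0.34), Ctsb (0.33), Tpp1 (0.19), Lamp1 (0.16) and Gusb (-0.46). In 6 genes a probe set other than the brightest passed where the brightest had not passed or had passed the opposite way, in the mean of both Ncl siRNAs minus control. Lamp2 gave 0.69 and 0.25, against -0.15 for its brightest. Lipa, which did not pass by its brightest probe set, gave -0.94. Atp6v1e1 gave -0.59, Atp6v1h -0.48, Atp6v0a2 -0.32 and Atp6v1b2 0.21, and none of these V-ATPase genes passed by its brightest probe set.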

How the results depend on the processing

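Of the 31 members that passed in the mean of both siRNAs, 18 kept their direction and their side of the threshold in every alternative that gave a value, a 1.5-fold minimum aside. With that minimum, 5 rose and 5 fell in the mean of both siRNAs, 5 and 4 with Ncl siRNA #1, 6 and 7 with Ncl siRNA #2, and 0 and 0 for Ncl siRNA #2 minus Ncl siRNA #1. For the last comparison, median centring gave 3 higher. The mean of all probe sets gave 1 higher and 0 lower, and so did the fit without a variance trend. With single arrays left out, 12 to 16 rose and 10 to 17 fell in the mean of both siRNAs, 12 to 15 and 9 to 17 with Ncl siRNA #1, 13 to 14 and 9 to 16 with Ncl siRNA #2, and 2 to 6 and 0 to 8 for Ncl siRNA #2 minus Ncl siRNA #1. The 9 lower came without the second control array. For Ncl siRNA #2 minus Ncl siRNA #1, 3 were higher without either control array or the first array of Ncl siRNA #1, and 2 without either array of Ncl siRNA #2. There 0 were lower without the first array of Ncl siRNA #1 or either array of Ncl siRNA #2. The fit with the replicate block gave 16 higher and 14 lower in the mean of both siRNAs, and 14 and 14 with Ncl siRNA #1.

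Direction turned where another probe set stood for the gene. With _x_at and _s_at probe sets left out, Atp6ap2 was at 0.14 (mean of both siRNAs), 0.16 (Ncl siRNA #1) and 0.12 (Ncl siRNA #2), Atp6v1e1 at -0.59, -0.47 and -0.70, Lipa at -0.94, -1.05 and -0.83, Lamp2 at 0.067 (mean of both) and Flcn at 0.26 (Ncl siRNA #1). With the mean of all probe sets, Ctsl was at -0.075 (mean of both), Lamp2 at 0.22, 0.14 and 0.29, and Lipa at -0.35, -0.36 and -0.33. For Ctsl the averaged value takes in a probe set that lay below the lower quartile on all 6 arrays. The cause in the other genes was not tested. The fit on only the arrays compared was not run for the mean of both siRNAs, since it would use all 6. Genes below the lower quartile give only a bound.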
